A study of Mus musculus with 3 samples.

Results

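Transcripts of 8 genes that mark the outer layer of the heart and related linings were measured by bulk RNA-seq. They are Wt1, Tcf21, Upk3b, Upk1b, Msln, Bnc1, Gpm6a and Podxl, chosen by name as epicardial and mesothelial genes. All 8 were present among the 23337 gene symbols counted in mouse heart tubes at embryonic day 9.5. The libraries came from 2 Sox7-null samples, labelled as lacking both copies of Sox7, and 1 wild-type sample. The strain, the null allele and the number of embryos behind a library were not given in the sources used here. Nothing in the labels says that the null tubes came from separate embryos, so p-values measure only the spread between these samples, which may be technical.

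The epicardium is the mesothelium of the heart. It arises from the proepicardium, a cluster of cells near the venous pole and the septum transversum, and spreads over the looping heart tube at about this stage. Part of it later enters the heart and gives rise to fibroblasts and mural cells, and it supplies retinoic acid to the myocardium beneath. Sox7 is a SoxF transcription factor of endothelium and endocardium, and the series asks which heart tube transcripts differ in its absence.

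Sox7 had 2 and 7 reads in Sox7-null 1 and Sox7-null 2 and 222 in the wild type. Reads assigned to genes numbered between 13139823 and 13789388 per library. Cardiomyocyte markers, 8 in all, summed to 33389 and 30730 CPM (reads per 1000000 reads of TMM-scaled library size) in the null tubes and 25798 CPM in the wild type. They did not all go 1 way. Myl7 (5098 and 6045 CPM against 6679) and Myl2 (4293 and 3821 against 6042) were below the wild type in both null tubes. The other 6 were above it in both. The extraction text of the labels names retinal cultures, but the retina markers Six6, Crx and Six3 had no read in any library. The whole retina list summed to 2.89, 1.45 and 2.49 CPM in Sox7-null 1, Sox7-null 2 and wild type, in that order.

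The null libraries agreed for some and disagreed for others of the epicardial and mesothelial genes. Wt1 and Podxl were higher than wild type in both null libraries and passed the test. Upk3b was above wild type in Sox7-null 1 and below it in Sox7-null 2. Upk1b was above wild type in Sox7-null 1 alone, Bnc1 and Gpm6a were below it in Sox7-null 2 alone (their other ratios were within counting error), and Tcf21 was below wild type in both, beyond counting error in Sox7-null 2 alone. Msln was close to absent. The test was edgeR's quasi-likelihood test on the counts of all genes, with a threshold of 0.05 on the Benjamini-Hochberg adjusted p. Of the 8 genes, 7 passed the filter on low counts. Among those 7, 2 were higher and 0 lower, where 11.3% of all 13334 genes tested were higher and 10.2% lower. The median log2 fold change was 0.19 over the 7 and 0.01 over all genes tested. In whole tubes, fewer cells of a type and less RNA per cell cannot be told apart.

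**Figure D1:**
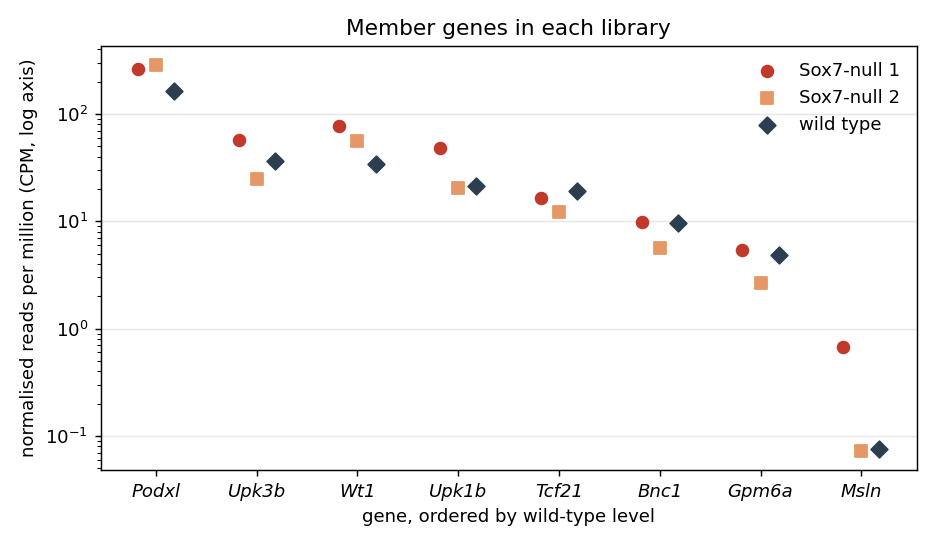
Level of each of the 8 genes in each library, in CPM on a log axis, with 1 point per library. Wt1 and Podxl have both null points above the wild-type point, whereas Upk3b has 1 null point on each side of it (57.5 and 24.9 against 36.1 CPM).

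The genes differed widely in abundance. Per kilobase of merged exon, the wild-type library had 29.7 CPM of Podxl, 10.2 of Upk3b, 10.1 of Upk1b, 8.15 of Tcf21, 5.51 of Wt1, 2.08 of Bnc1, 1.50 of Gpm6a and 0.0246 of Msln. In the null libraries Podxl again led, with 47.6 and 51.7 CPM per kilobase. Upk1b (23.0 and 9.80), Upk3b (16.3 and 7.05) and Wt1 (12.5 and 9.08) had overlapping ranges there, so their order was not resolved. Tcf21, at 6.98 and 5.16 CPM per kilobase, lay below these 3 within each null library. Across libraries its range all but met that of Upk3b (6.98 in Sox7-null 1 against 7.05 in Sox7-null 2). Bnc1 followed at 2.11 and 1.22, and Gpm6a at 1.66 and 0.835, so these ranges also overlapped. Lengths are those of GENCODE M21, since the annotation used for counting is not given in the sources used here.

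Wt1 and Tcf21 encode transcription factors. Wt1, a zinc finger protein that marks proepicardium, epicardium and other coelomic epithelia, had 1047 and 775 reads in Sox7-null 1 and Sox7-null 2 and 453 in the wild type. These reads correspond to 77.7, 56.2 and 34.2 CPM. Both null libraries lay above the single wild-type library, as they did for 43.1% of all genes tested. Sox7-null 1 was 2.27-fold higher than the wild type (95% exact interval 2.03 to 2.54) and Sox7-null 2 was 1.65-fold higher (1.46 to 1.85). Such intervals, here and below, cover counting error only. Wt1 rose (log2 fold change 0.97 ± 0.24 SE, edgeR adjusted p = 0.0132; over 6 alternative settings the adjusted p ranged from 0.0109 to 0.148). The exception was edgeR without a filter on low counts (log2 fold change 0.98, adjusted p = 0.148), a setting in which 0 of all genes passed.

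Wt1 is also expressed in podocytes, in septum transversum and in other coelomic tissue. The podocyte gene Nphs1 had 1 read in Sox7-null 1 and none in the other libraries. Over the 9 podocyte and nephric markers the summed level was 35.83 and 20.97 CPM in the null tubes against 13.8 CPM in the wild type, most of it from Synpo (31.2 and 15.4 CPM against 7.62), which encodes an actin-binding protein. In the list of septum transversum and liver markers, 7 of 10 tested fell and 0 rose, against 10.2% of all genes tested that fell. The 7 were Lhx2 and the liver and endoderm genes Afp, Alb, Ttr, Apoa2, Foxa1 and Hnf4a. With DESeq2 3 fell, where 6 of the 10 had an adjusted p, and 2 of 4 fell at a mean of at least 5 CPM. The list summed to 22.7 and 23.7 CPM in the null tubes and 70.1 CPM in the wild type. The part of these tissues in the Wt1 difference was not tested. The antisense transcript Wt1os had 2, 1 and 2 reads in Sox7-null 1, Sox7-null 2 and wild type, in that order.

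Tcf21, a basic helix-loop-helix factor of epicardial progenitors that form fibroblasts, did not follow Wt1. It had 221 and 167 reads in the null tubes and 254 in the wild type, or 16.4, 12.1 and 19.2 CPM. Both null libraries lay below the wild type. Sox7-null 1 stood at 0.856 of the wild-type level (95% exact interval 0.711 to 1.03), which is within counting error. Sox7-null 2 stood at 0.633 of it (0.517 to 0.772). The fitted difference of Tcf21 was -0.43 ± 0.26 on the log2 scale and was not called (edgeR adjusted p = 0.265). Its closest relatives in the file, Msc and Tcf23, had no read in any library. Tcf21 is also made in pharyngeal muscle precursors, for which 4 of 7 markers could be tested. Of these 0 rose and 1 fell (Lhx2), against 11.3% and 10.2% of all genes tested. Msc and Myf5 were at 0, and the 7 summed to 22.6 and 31.0 CPM in the null tubes against 39.4 CPM in the wild type.

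Upk3b and Upk1b encode uroplakins. Uroplakins were named for the plaques of bladder urothelium, where a tetraspanin uroplakin such as Upk1b pairs with a single-pass partner, and both genes are also mesothelial markers. Upk3b had 775 and 343 reads in Sox7-null 1 and Sox7-null 2 and 479 in the wild type, or 57.5, 24.9 and 36.1 CPM. The null libraries therefore lay on opposite sides of the wild type. Sox7-null 1 was 1.59-fold higher (95% exact interval 1.42 to 1.79), and Sox7-null 2 was 1.45-fold lower, at 0.689 of the wild-type level (0.598 to 0.793). Both intervals exclude equality. The fitted log2 fold change of 0.19 ± 0.36 did not pass (edgeR adjusted p = 0.747) and averages over that disagreement.

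Upk1b had 647 and 282 reads against 280, or 48.0, 20.5 and 21.1 CPM. Sox7-null 1 was 2.27-fold higher than the wild type (95% exact interval 1.97 to 2.62), while Sox7-null 2 stood at 0.969 of it (0.818 to 1.15), within counting error. The log2 fold change of 0.70 ± 0.38 did not pass (edgeR adjusted p = 0.208). Between the null libraries the uroplakins differed by almost the same factor. Sox7-null 1 exceeded Sox7-null 2 by 2.31-fold for Upk3b (2.03 to 2.63) and by 2.35-fold for Upk1b (2.04 to 2.71). A gap of at least 1 in log2(CPM + 0.5) in that direction was present in these 2 of the 7 genes tested and in 1.50% of all genes tested. A gap of that size in the other direction was present in 0 of the 7 and in 0.937% of all. The other uroplakins were nearly silent. Upk2 had no read, Upk1a had 0, 1 and 2 reads, Upk3a had 0, 0 and 1, and Upk3bl had 0, 1 and 0 in Sox7-null 1, Sox7-null 2 and wild type, in that order.

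Msln encodes mesothelin, a surface glycoprotein of mature mesothelium. It had 9 reads in Sox7-null 1 and 1 read in each of the other libraries, or 0.668, 0.0726 and 0.0754 CPM, and was left out of the test by the filter. The ratio of Sox7-null 1 to the wild type was 8.85, with a 95% exact interval from 1.23 to 388. At this depth the size of that difference could not be resolved. The neighbouring relative Mslnl had no read.

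Bnc1 and Gpm6a are mesothelial genes shared with other tissues. Bnc1 encodes basonuclin, a zinc finger protein also found in squamous epithelia and germ cells. Its reads numbered 132 and 78 in the null tubes and 128 in the wild type, or 9.79, 5.66 and 9.65 CPM. Sox7-null 1 was at the wild-type level (ratio 1.01, 95% exact interval 0.789 to 1.30), and Sox7-null 2 was lower, at 0.586 of it (0.437 to 0.783). The test did not call Bnc1 (log2 fold change -0.32 ± 0.35, edgeR adjusted p = 0.552). Its exons overlap those of 4833418N17Rik on the opposite strand in GENCODE M21, and since the strand setting of the counting is not given, reads of the overlapping gene cannot be told apart. Markers of surface ectoderm and squamous epithelium (7 genes) summed to 60.4 and 52.2 CPM against 102 CPM, with Krt14 at 0 in every library. Nearly all of each sum came from Perp (59.7 and 49.8 CPM against 97.1), so the sums describe that gene rather than the list. Bnc2, the relative of Bnc1, had 6, 13 and 8 reads.

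Gpm6a encodes a proteolipid-family membrane glycoprotein of neurons and mesothelium. It had 72, 37 and 64 reads in Sox7-null 1, Sox7-null 2 and wild type, in that order, or 5.34, 2.68 and 4.83 CPM. Sox7-null 1 did not differ from the wild type beyond counting error (ratio 1.11, 95% exact interval 0.779 to 1.57), and Sox7-null 2 stood at 0.556 of it (0.361 to 0.847). Its log2 fold change was -0.27 ± 0.45 (edgeR adjusted p = 0.715). The 10 neural markers summed to 81.2 and 73.4 CPM in the null tubes and 59.2 CPM in the wild type. None of them was at 0 throughout. Gap43 made up the largest part of each sum (40.9 and 49.3 CPM against 23.9). Without Gap43 the sum of Sox7-null 2 would lie below that of the wild type. Among the other markers tested, Stmn2, Elavl4 and Map2 were below wild type in both null libraries and Nefl was above it in both. Tubb3 and Pax6 had the wild type between the null libraries. Of the 7 tested, 1 rose (Gap43) and 1 fell (Elavl4), against 11.3% and 10.2% of all genes tested. Elavl4 passed neither with DESeq2 (adjusted p = 0.203) nor after correction for length and GC (edgeR adjusted p = 0.0501). The part of the neural markers in the level of Gpm6a was not tested.

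RefSeq promoter sequences (GRCm38.p6, 250 bases before to 50 after the start) were held for 4 of the 8 genes. These 4 genes, Upk3b, Bnc1, Gpm6a and Tcf21, are shown because they were the ones held, not for their levels. All 4 had their lowest level in Sox7-null 2, and Tcf21 had its highest in the wild type. Each is printed 5′ to 3′ on the strand of the gene, and capitals mark letters that match a searched motif on either strand. The regions are chr5:136038246-136038545 (plus strand) for Upk3b, chr7:81992250-81992549 (minus strand) for Bnc1, chr8:54779184-54779483 (plus strand) for the upstream of 2 listed starts of Gpm6a, and chr10:22820094-22820393 (minus strand) for Tcf21.
Upk3b: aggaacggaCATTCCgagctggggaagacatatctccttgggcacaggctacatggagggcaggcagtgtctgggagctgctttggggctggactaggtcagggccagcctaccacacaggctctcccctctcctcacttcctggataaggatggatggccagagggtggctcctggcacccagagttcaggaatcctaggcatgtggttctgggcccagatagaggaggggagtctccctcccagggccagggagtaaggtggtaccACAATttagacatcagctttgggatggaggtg
Bnc1: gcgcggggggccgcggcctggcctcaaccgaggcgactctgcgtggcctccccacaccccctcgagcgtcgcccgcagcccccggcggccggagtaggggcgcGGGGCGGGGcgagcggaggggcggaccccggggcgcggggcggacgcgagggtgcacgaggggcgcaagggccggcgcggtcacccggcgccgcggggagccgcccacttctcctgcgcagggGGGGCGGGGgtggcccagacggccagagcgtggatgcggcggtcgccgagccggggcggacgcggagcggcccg
Gpm6a: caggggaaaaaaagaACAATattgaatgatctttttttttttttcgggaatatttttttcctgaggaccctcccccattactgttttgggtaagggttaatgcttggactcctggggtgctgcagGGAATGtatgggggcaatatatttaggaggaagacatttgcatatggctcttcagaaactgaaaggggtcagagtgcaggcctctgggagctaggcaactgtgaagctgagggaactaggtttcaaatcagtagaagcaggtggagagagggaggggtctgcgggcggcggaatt
Tcf21: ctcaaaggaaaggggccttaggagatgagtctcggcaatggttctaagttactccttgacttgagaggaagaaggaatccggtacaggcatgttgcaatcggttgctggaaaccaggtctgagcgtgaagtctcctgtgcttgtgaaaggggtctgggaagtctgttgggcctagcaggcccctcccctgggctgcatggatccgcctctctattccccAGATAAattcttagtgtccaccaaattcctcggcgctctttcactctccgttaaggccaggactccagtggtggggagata

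Motifs were searched on both strands, here and in all 32851 promoters of the table. The letters GGAATG, bound by TEAD factors, were in 14.7% of all promoters. The core ACAAT, bound by SOX factors, was in 31.0% of them. The GATA factor letters AGATAA were in 11.2%. The WT1 letters GCGTGGGNG were in 1.90%. The GC box GGGGCGGGG was in 11.4%. None of the marked matches overlap. Upk3b and the printed window of Gpm6a each held 1 match to the TEAD letters and 1 to the SOX letters. The window of the downstream start of Gpm6a, which is not printed, held no match to any of the motifs. Bnc1 held 2 GC boxes in a window that was 83.3% G or C, against a median of 52.7% over all promoters. Tcf21 held 1 match to the GATA letters, 31 bases before its start. The WT1 letters were in none of these 4 windows. A match of letters is a description of the sequence and shows no binding.

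Podxl encodes podocalyxin, a sialomucin of podocytes, vascular endothelium and blood progenitors as well as mesothelium, and was the most abundant gene of the group. It had 3519 and 3912 reads in the null tubes and 2163 in the wild type, or 261, 284 and 163 CPM. Both null libraries lay above the wild type and close to each other, with Sox7-null 1 at 0.920 of Sox7-null 2 (95% exact interval 0.878 to 0.963). Relative to the wild type, the level stood at 1.60 for Sox7-null 1 (1.52 to 1.69) and at 1.74 for Sox7-null 2 (1.65 to 1.83). Podxl rose, by 0.74 ± 0.18 on the log2 scale (edgeR adjusted p = 0.0112; 0.00867 to 0.150 over 6 alternative settings). It no longer passed once levels were corrected for a trend with length and GC content of the transcripts (log2 fold change 0.40 ± 0.19, edgeR adjusted p = 0.150) or without a filter on low counts (edgeR adjusted p = 0.122).

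Among other carriers of Podxl, 10 endothelial and endocardial markers summed to 535 and 526 CPM in the null tubes and 522 CPM in the wild type, with 2 higher (Pecam1, Tie1), 2 lower (Tek, Npr3) and none at 0. With DESeq2, Tie1 and Npr3 did not pass (adjusted p = 0.0749 and 0.0710), nor did Tie1 after correction for length and GC (edgeR adjusted p = 0.205). Of 8 haematopoietic and platelet markers 6 rose (5 with DESeq2), 0 fell and none was at 0. Of all genes tested, 11.3% rose and 10.2% fell. Pf4, Ppbp, Itga2b and Gp9 had the smallest p in that list, each above wild type in both null libraries. Pf4 had 1455 and 891 reads against 217. The 8 summed to 2231 and 5562 CPM in the null tubes and 5383 CPM in the wild type. Most of that sum came from the embryonic globin gene Hbb-y, which was not called (edgeR adjusted p = 0.315). It had 26590, 74458 and 70692 reads in Sox7-null 1, Sox7-null 2 and wild type, in that order. The part of the endothelial and haematopoietic markers in the Podxl difference was not tested. Cd34, a sialomucin of the same family, moved opposite to Podxl, with 541 and 546 reads against 855. It fell (log2 fold change -0.69 ± 0.20; edgeR adjusted p = 0.0245), but did not pass with DESeq2 (adjusted p = 0.0695) or after correction for length and GC (edgeR adjusted p = 0.0784). Podxl2, the third sialomucin gene of that family, had 64, 40 and 39 reads and did not pass.

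**Figure D2:**
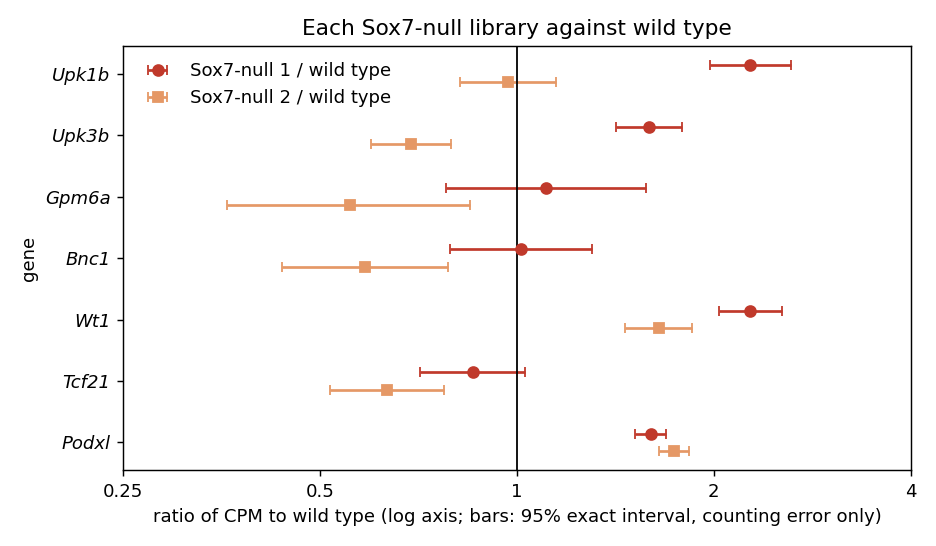
Ratio of each null library to the wild type for the 7 genes with enough reads to be tested, on a log axis, with 95% exact intervals for counting error, ordered by the ratio of Sox7-null 1 to Sox7-null 2. Upk3b is the gene whose intervals lie wholly on opposite sides of 1 (1.59 and 0.689), whereas both intervals of Wt1 and of Podxl lie above 1.

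Set side by side, the null libraries lay on opposite sides of the wild type for 4 of the 7 genes tested, against 13.9% of all genes tested. Upk3b, Upk1b, Bnc1 and Gpm6a were above wild type in Sox7-null 1 and below it in Sox7-null 2, a pattern of 6.96% of all genes tested. For Upk1b, Bnc1 and Gpm6a 1 of the 2 ratios was within counting error of 1, so the opposite directions were resolved for Upk3b alone. On total gene reads in place of TMM scaling, Upk1b in Sox7-null 2 turned from -0.04 to 0.03 in log2(CPM + 0.5), which leaves 3 genes. The reverse pattern, with Sox7-null 1 below and Sox7-null 2 above, was present in 0 of the 7 and in 6.91% of all genes tested. Wt1 and Podxl were above wild type in both null libraries, as were 43.1% of all genes, and Tcf21 was below in both, as were 43.0%. In 6 of the 7 the level in Sox7-null 1 exceeded that in Sox7-null 2, the exception being Podxl. The same held for 50.4% of all genes tested. The 2 null libraries were each compared with the same wild-type library.

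By size, 2 of the 7 tested (Wt1 and Upk1b) exceeded the wild type by at least 1 in log2(CPM + 0.5) in Sox7-null 1, against 10.7% of all genes tested. None did in Sox7-null 2, against 5.74%. No gene of the 7 lay under the wild type by that much in either library, against 7.72% and 3.59% of all genes. The median difference from the wild type over the 7 stood at 0.66 for Sox7-null 1 and at -0.53 for Sox7-null 2, where the medians over all genes tested were both 0.00 to 2 decimals. The sign of the group's median thus depended on which null library was read.

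**Figure D3:**
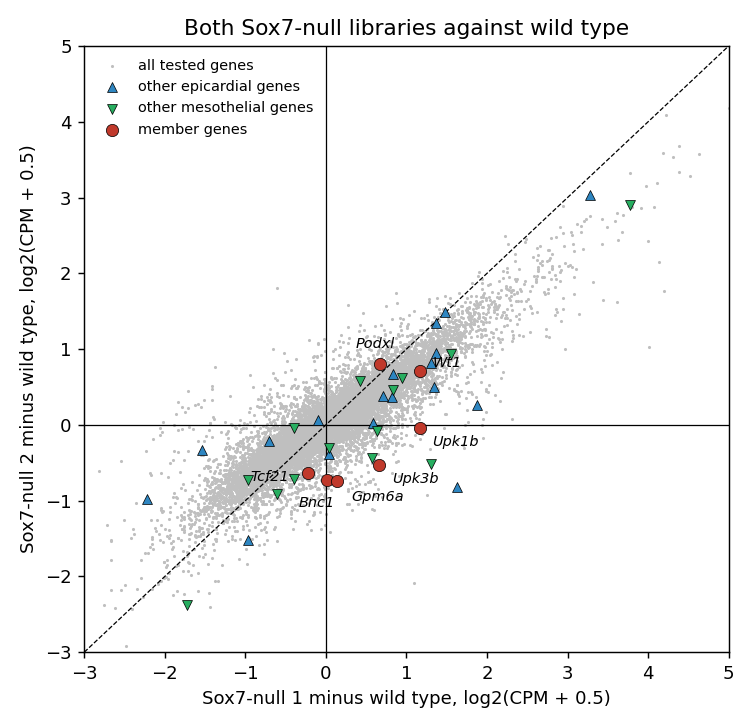
Difference from wild type in log2(CPM + 0.5) for every gene tested, in Sox7-null 1 (horizontal) and Sox7-null 2 (vertical), with 21 genes outside the axes. Of the 7 labelled genes 6 lie below the dashed line of equal difference, and 4 lie in the lower right part, where Sox7-null 1 is above and Sox7-null 2 below the wild type (3 on total gene reads, without Upk1b).

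Other epicardial and proepicardial genes were examined next, as a list of 18, all of which could be tested. Of these, 8 rose and 1 fell, with a median log2 fold change of 0.69, where 11.3% of all genes tested rose and 10.2% fell. With DESeq2 6 rose and 0 fell, where 17 had an adjusted p, and 5 rose and 2 fell after correction for length and GC. The simple epithelial keratin gene Krt19 had 10671 and 9216 reads against 1074 and rose in both libraries alike (log2 fold change 3.17 ± 0.20, edgeR adjusted p = 4.87e-06). Krt8 and Krt18, also keratin genes of simple epithelia, rose by 1.49 and 1.36. Fn1, the matrix protein fibronectin, had a log2 fold change of 1.08, and Tgfbi, a matrix protein induced by TGF-beta, one of 1.20. Fn1 missed the threshold after that correction (0.56, edgeR adjusted p = 0.0520). Nr2f1, a nuclear receptor gene of venous and atrial precursors, fell, with 92 and 231 reads against 445, but not with DESeq2 (adjusted p = 0.376). Scx, Sfrp5 and Gata5 were also below wild type in both null libraries, but were not called. They had 16 and 9 reads against 37, 72 and 179 against 219, and 443 and 640 against 717, in that order. Gata5 was called lower after correction for length and GC (log2 fold change -0.72, edgeR adjusted p = 0.0364).

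The proepicardial transcription factor gene Tbx18 was not called. It had 980 and 748 reads in the null tubes and 940 in the wild type, and a fitted difference of -0.16 ± 0.22 on the log2 scale (edgeR adjusted p = 0.643). Aldh1a2, the retinaldehyde dehydrogenase that makes retinoic acid in the epicardium, had 223 and 70 reads against 55. Relative to the wild type it stood at 3.99 for Sox7-null 1 and at 1.22 for Sox7-null 2, and the log2 fold change of 1.38 ± 0.55 did not pass (edgeR adjusted p = 0.0924). Aldh1a1, a second enzyme of that step, had 306 and 52 reads against 93, a 6.02-fold gap between the null libraries. In this list 13 of 18 genes were higher in Sox7-null 1 than in Sox7-null 2, as were 50.4% of all genes tested. The median gap was 0.37 on the log2 scale, against 0.00 over all genes tested. The null libraries lay on opposite sides of the wild type for 3 of the 18, near the 13.9% of all genes tested.

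Of 18 further mesothelial genes 17 were in the files and 14 could be tested. Among those 14, 4 rose and 2 fell, with a median log2 fold change of 0.26, against 11.3% and 10.2% of all genes tested. With DESeq2 1 rose and 0 fell, where 11 had an adjusted p, and 1 rose and 3 fell after correction for length and GC. C3, a complement component made by mesothelium and liver, had 211 and 114 reads against 9 and rose (log2 fold change 4.12 ± 0.55, edgeR adjusted p = 0.000555). Nkain4, a membrane protein gene, fell, with 10 and 4 reads against 48. Lrrn4, a mesothelial membrane protein gene, had 344 and 210 reads against 215 and resembled Upk1b in its order of libraries, but did not pass (edgeR adjusted p = 0.463). Krt7 had 64 and 29 reads against 40, and Efemp1, an extracellular matrix protein gene, 83 and 19 against 29. Both had the wild type between the null libraries, but in Sox7-null 2 their ratios to it were within counting error of 1 (95% exact intervals 0.417 to 1.15 and 0.334 to 1.16). In 11 of the 14 the level was higher in Sox7-null 1 than in Sox7-null 2 (50.4% of all genes tested). In 4, Lrrn4 among them, the null libraries lay on opposite sides of the wild type (13.9% of all). For each of these 4 the ratio of Sox7-null 2 to the wild type was within counting error of 1, so no opposite direction was resolved.

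**Figure D4:**
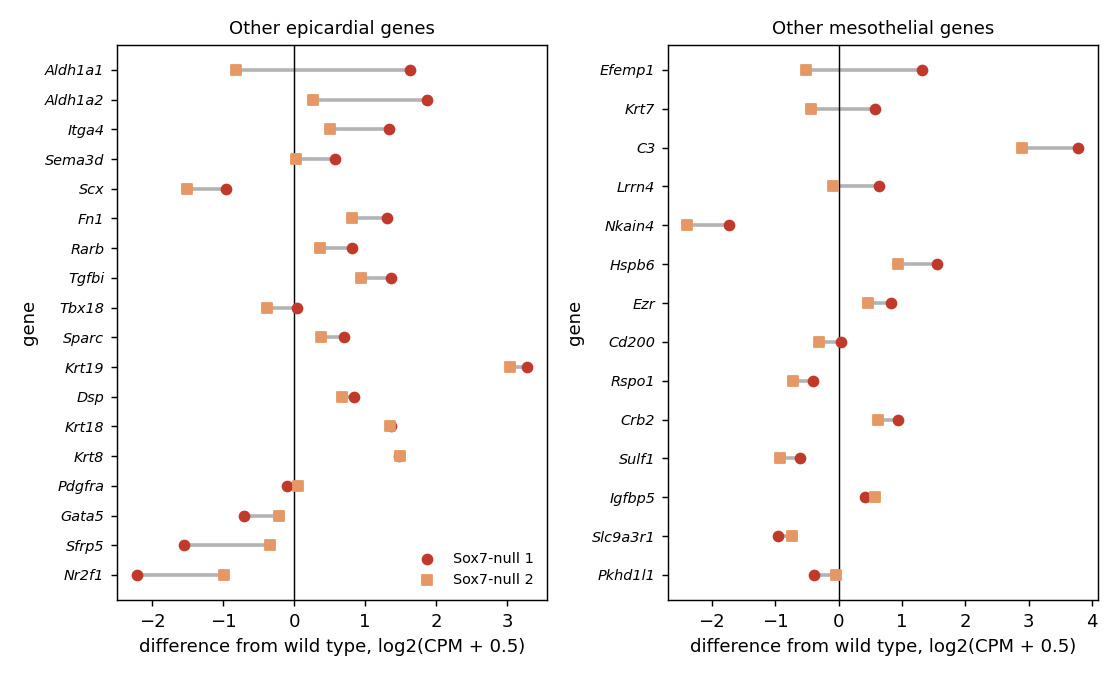
Difference from wild type in log2(CPM + 0.5) for 18 other epicardial and 14 other mesothelial genes, with 1 point per null library joined by a line, ordered by the gap between them. The null points of the keratin genes Krt8, Krt18 and Krt19 lie close together above the wild type, whereas those of Aldh1a1, Efemp1 and Krt7 lie on either side of it, for Efemp1 and Krt7 within counting error of it in Sox7-null 2.

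Genes reported elsewhere as targets of Wt1 formed a further list of 14, of which 11 could be tested. Here 4 rose and 1 fell, with a median log2 fold change of 0.53, against 11.3% and 10.2% of all genes tested. That median is the value of Ntrk2, which had 2, 13 and 5 reads in Sox7-null 1, Sox7-null 2 and wild type. It was 0.39 over the list with limma-voom and 0.32 after correction for length and GC. The list was not divided by the reported direction of regulation. With DESeq2 3 rose and 1 fell, where 8 had an adjusted p, and 2 rose and 1 fell after correction for length and GC. Podxl itself is on this list. Spry1, a feedback inhibitor of receptor tyrosine kinase signalling, had 337 and 241 reads against 88 and rose (log2 fold change 1.68 ± 0.30, edgeR adjusted p = 0.00272). Nes, the intermediate filament protein nestin, had 2491 and 2660 against 1403 and rose by 0.84, but not after that correction (0.34, edgeR adjusted p = 0.231). Itga4, the integrin subunit through which epicardium adheres to myocardium, had 837 and 478 against 322 and rose by 0.99 ± 0.30 (edgeR adjusted p = 0.0345), though not with DESeq2 (adjusted p = 0.0501), with limma-voom (adjusted p = 0.0562) or at a mean of at least 5 CPM (edgeR adjusted p = 0.0688). Wnt4, a ligand gene of mesonephros and endocardium, fell, with 37 and 20 reads against 216. The regulators of epithelial to mesenchymal transition Snai1 (39 and 39 against 77) and Snai2 (58 and 45 against 93) did not pass. Cdh1, the epithelial cadherin gene, had 4, 21 and 23 reads.

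The genes nearest in pattern to Wt1 and to Upk3b were found by distance over the 3 libraries in log2(CPM + 0.5), centred per gene, among 10290 genes with a mean of at least 5 CPM. For Wt1 these were P2rx4, Hspb7, Atn1, Inadl and Itprip, at distances of 0.0139 to 0.0239. Hspb7, a small heat shock protein gene of cardiac muscle, had 8885 and 6455 reads against 3859. The 5 nearest to Upk3b were Ptn, Snap91, Tubb3, Nrgn and Ncam1, at larger distances of 0.173 to 0.260. Tubb3, a tubulin gene typical of neurons, had 338 and 154 reads against 179, and Ncam1, a neural and cardiac adhesion molecule, 492 and 281 against 350. With 3 libraries, such likeness describes the order and spacing of 3 values and no more.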

How the data were processed

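RNA of mouse heart tubes was measured in 3 libraries, 2 Sox7-null and 1 wild type, grouped by the genotype label. Per the labels' protocols, a stranded total RNA kit was used. The deposited files hold raw counts of reads for each gene symbol, with 1 library in each file. Per the submitters' processing notes, the tools were CASAVA, TopHat2 and HTSeq, with DESeq2 1.10.1, and the builds named are the human hg19 and GRCh37, although the symbols are those of mouse. The annotation and strand setting were not given in the sources used here. The coordinates printed are those of RefSeq promoters on GRCm38.p6, not of the counted features.

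Summary lines that name no gene did not enter library sizes or the fit. For Sox7-null 1, Sox7-null 2 and wild type, in that order, they comprised 8.10%, 8.52% and 11.7% of reads outside any feature, 2.27%, 2.29% and 1.97% that were ambiguous, and 10.4%, 11.6% and 22.3% with more than a single alignment. Counts of all 13334 genes kept by filterByExpr (minimum count 10) were fitted with edgeR 4.0.16 in R 4.3.3 (TMM, glmQLFit, glmQLFTest, genotype as the term, Benjamini-Hochberg over all genes tested). The fit had 1 residual and 11.8 prior degrees of freedom, so the spread of the single wild-type library is taken from the null pair. The script was tested on simulated data. Single-library ratios carry no test, only an exact binomial 95% interval on reads, which are not independent molecules. Alternatives were DESeq2 1.42.0, limma-voom 3.58.1, other scaling, filters and pseudocounts, each null library left out and, added after seeing the data, removal of a trend on transcript length and GC.

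The 8 genes and all lists were chosen with earlier results of these data known. Of 148 list entries, 1 (Muc16) was not matched and 3 matched through an older symbol. Named were the 8 genes, their relatives, up to 4 genes per list by smallest p and those needed to describe a member. Tgfbi, Nr2f1, Itga4, Snai1, Snai2, Cdh1, Hlx, Mab21l2, Osr1, Aldh1a1, Krt7, Efemp1, Lrrn4, Hspb7 and Ncam1 were singled out after their values were seen. So were Scx, Sfrp5, Gata5, Ntrk2, Myl7 and Myl2. Some list genes are not reported here by name.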

Additional observations from a re-analysis of the deposited data

How the results depend on the processing

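With 2 libraries against 1, the calls rest on 1 residual degree of freedom and on how the spread is shared between genes. Of the 7 genes tested, 2 were higher with edgeR under RLE size factors or a mean of at least 5 CPM, with DESeq2 and with limma-voom, and 0 were lower in any setting. That count was 1 after correction for length and GC and 0 with edgeR without a low-count filter. Without the filter, of 17242 genes 0 were called higher and 0 called lower (smallest adjusted p = 0.122), while 4113 had an unadjusted p under 0.05. With DESeq2, 941 genes were higher and 721 lower, against 1508 and 1366 with edgeR. The log2 fold change of Upk3b turned to -0.056 after correction for length and GC, and it passed in no setting. The cause of these changes was not tested.

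Leaving out a null library leaves 1 against 1 and gives a value with no test: the median log2 fold change of the 7 ranged from -0.54 without Sox7-null 1 to 0.67 without Sox7-null 2, and over the other settings from -0.04 to 0.20. At a mean of at least 5 CPM, where Gpm6a is left out, the median of the remaining 6 was 0.45. No paired analysis was possible because there is 1 wild-type library, and the labels tie it to neither null library. Msln, with 11 reads in all, and Gpm6a, with 173, are limited by depth.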

Other observations

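Genes of the septum transversum, the mesenchyme next to the proepicardium, did not move as 1 group. Lhx2, a LIM homeobox gene of liver mesenchyme and pharyngeal muscle, had 5 and 2 reads in the null tubes and 58 in the wild type and fell (log2 fold change -4.04 ± 0.67, edgeR adjusted p = 0.00170). Its relative Lhx9, which is also made in coelomic epithelium, stood at 66 and 65 reads, with 76 in wild type, and did not pass (edgeR adjusted p = 0.657). Hlx, a homeobox gene of visceral mesenchyme, had 92 and 43 reads against 33, with Sox7-null 1 the highest, as for Upk1b and Aldh1a2. Mab21l2 had 120 and 199 reads against 162, with the null libraries in the opposite order. Osr1, a zinc finger gene of intermediate and lateral mesoderm, had 26, 32 and 29 reads in Sox7-null 1, Sox7-null 2 and wild type, in that order.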
